A study of Homo sapiens with 10 samples.

Results

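ASNS, DDIT3, HSPA5 and XBP1 are stress-response genes that lie downstream of the transcription factor ATF4 or of the sensors of the unfolded protein response. They were followed across breast cancer cell (BCC) subsets that differ in OCT4 reporter level. The 4 genes were taken by symbol from the 12083 genes that have a probe set with a single gene symbol. A probe set is a group of array probes for the same transcript. The genes have 7 of the 25750 probe sets of the table, and all 7 are given here. ATF4 itself and EIF2AK3, the gene of the sensor kinase PERK, are not analysed here.

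The cells were MDA-MB-231, a human breast cancer line derived from a metastatic site, transfected with pEGFP1-Oct3/4, in which the Oct4A promoter drives GFP, and selected with neomycin. They were sorted by GFP intensity into Oct4hi BCCs (4 arrays), Oct4med BCCs (2 arrays) and Oct4low BCCs (4 arrays), so all 3 subsets carried the same reporter and had the same selection. Per the labels, Oct4hi and Oct4low BCCs were the top and lowest 5% by GFP and Oct4med BCCs lay between them. Total RNA, 100 ng for each of the 10 arrays, was hybridized to Affymetrix GeneChip U133 Plus 2.0 arrays. A single cell line and a promoter reporter limit the model, since GFP stands in for Oct4A. POU5F1, the gene of OCT4, is not analysed here.

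Proteins that fail to fold in the endoplasmic reticulum (ER) release the chaperone BiP from 3 membrane sensors, IRE1, PERK and ATF6, and this starts the unfolded protein response. IRE1 splices the XBP1 mRNA into the form that encodes an active transcription factor, ATF6 is cut into another, and PERK phosphorylates the translation factor eIF2 alpha. Phosphorylated eIF2 alpha lowers general translation and favours that of ATF4, and kinases that sense amino acid shortage, haem shortage or double-stranded RNA reach ATF4 by the same step. Secretory cells of the mouse mammary gland depend on XBP1, and XBP1 and ATF4 have been linked to survival under stress in triple-negative breast cancer, the class to which MDA-MB-231 belongs. HSPA5 encodes BiP, ASNS encodes asparagine synthetase, and DDIT3 encodes CHOP, a transcription factor tied to cell death under prolonged stress.

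The promoters are shown because these genes are known for the DNA elements through which the factors of the response reach them. The sequences are the 120 bases before the first start site that RefSeq lists for each gene (GRCh38.p14, minus strand, 5′ to 3′), and capitals mark an element. They lie at chr7:97872409-97872528 for ASNS, chr12:57520515-57520634 for DDIT3, chr9:125241344-125241463 for HSPA5 and chr22:28800570-28800689 for XBP1.
ASNS: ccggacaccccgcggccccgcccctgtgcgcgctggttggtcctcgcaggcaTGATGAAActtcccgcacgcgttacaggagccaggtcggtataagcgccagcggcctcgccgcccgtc
DDIT3: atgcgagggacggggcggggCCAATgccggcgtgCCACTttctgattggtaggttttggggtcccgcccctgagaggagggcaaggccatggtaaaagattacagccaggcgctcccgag
HSPA5: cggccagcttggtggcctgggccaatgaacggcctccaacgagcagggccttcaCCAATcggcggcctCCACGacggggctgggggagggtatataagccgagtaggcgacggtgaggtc
XBP1: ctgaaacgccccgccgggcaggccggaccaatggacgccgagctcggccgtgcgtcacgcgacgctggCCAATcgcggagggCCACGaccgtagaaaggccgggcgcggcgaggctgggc
Windows of 300 bases, 250 before and 50 after the start, were searched on both strands. In HSPA5 and XBP1 the capitals mark the ER stress element, CCAAT and CCACG with any 9 bases between them. It lies at -66 to -48 in HSPA5 and at -52 to -34 in XBP1, counted in bases from the start site. Of 35116 RefSeq promoter windows, 0.0769% hold this element. DDIT3 has it only when the last base is left free, at -100 to -82. That form, added after the sequences had been read, occurs in 0.316% of windows and includes every match of the full element. In ASNS the capitals mark the C/EBP-ATF composite element (TGATGNAA, 3.62% of windows) at -68 to -61. The windows of the other start sites that RefSeq lists for ASNS and XBP1 hold no match of these elements, and the window of the other DDIT3 start holds the same match. A match is a string of letters and not a measured binding site.

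**Figure D1:**
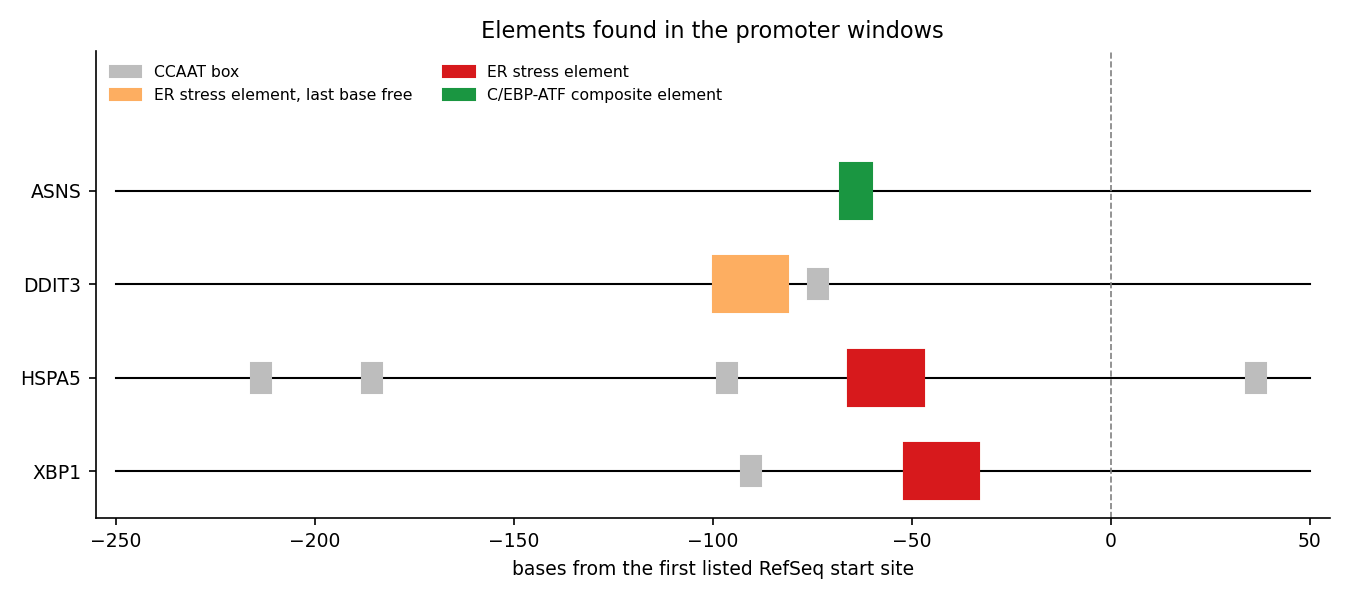
Positions of the elements in the promoter windows of ASNS, DDIT3, HSPA5 and XBP1, in bases from the first listed RefSeq start site (0, dashed line), with grey boxes for CCAAT outside an ER stress element. The full ER stress element lies at -66 to -48 in HSPA5 and at -52 to -34 in XBP1, DDIT3 holds the form with its last base free, and ASNS holds the composite element.

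All values are log2 intensities, on which a difference of 1 is a doubling of signal, and a level of a probe set is not comparable with that of another probe set. Probe sets at or above the median of their array in at least 2 arrays were tested, which were 13883 of the series and 6 of the 7 here. The 10 arrays entered a single limma model with 3 subset means, and p-values of its two-sided moderated test were adjusted by Benjamini-Hochberg over all 13883, with 0.05 as the threshold. The 3 comparisons share arrays and are therefore not independent of each other. Arrays of a subset are labelled as biological replicates, and the p-values measure only the spread between these samples. In bulk RNA, fewer cells that express a gene and less of its RNA per cell cannot be told apart.

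Across the whole series, replicates correlated at 0.987 to 0.994 (Pearson's r over tested probe sets) and arrays from different subsets at 0.957 to 0.981. Of 5 measured genes fixed as marks of the cell line, CD44, CAV1, ANXA1 and TGFBI were above the array median on all 10 arrays and the probe set of VIM was not. Signal was spread differently over the arrays. The 90th percentile of an array was 8.29 to 8.38 in Oct4hi BCCs, 8.14 and 8.28 in Oct4med BCCs and 8.27 to 8.35 in Oct4low BCCs, with replicate 1 of Oct4med BCCs the lowest of all. Of genes fixed as marks of other cells, 3 of 5 measured luminal breast genes (ESR1, GATA3, MLPH) were above the array median on every array. The summed signal of the list, as log2, was 9.12 to 9.26 in Oct4hi, 9.66 to 9.73 in Oct4med and 9.91 to 9.95 in Oct4low BCCs. That of the erythroid list (1 of 2 above the median) was 7.92 to 8.16 in Oct4hi, 7.93 to 7.98 in Oct4med and 7.21 to 7.44 in Oct4low BCCs. Over all arrays it was 7.10 to 7.40 for the leukocyte list (2 of 5) and 8.79 to 9.21 for the stromal list (3 of 4), and no marker was at 0. The part of these differences in the results below was not tested.

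DDIT3 and both HSPA5 probe sets were lowest in Oct4med BCCs, and XBP1 followed with a smaller and less stable difference. ASNS was highest in Oct4hi BCCs, where only its difference from Oct4low BCCs passed the threshold. By limma's moderated F-test over the 3 subsets, 6 of 6 tested probe sets passed, where 44.4% of all tested probe sets did. In Oct4hi against Oct4low BCCs, 2 of 6 passed (ASNS higher, DDIT3 lower) against 34.8% of all probe sets, a share near the background. In Oct4med against Oct4low BCCs 4 of 6 passed, all lower, against 20.6% of all probe sets. In Oct4hi against Oct4med BCCs 4 of 6 passed, all higher, against 26.7%.

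DDIT3 is the pro-apoptotic effector of the group and has a single probe set here (209383_at). It measured 9.05, 9.12, 9.08 and 9.32 in the 4 Oct4hi arrays, 7.82 and 8.01 in the 2 Oct4med arrays, and 9.41, 9.53, 9.61 and 9.53 in the 4 Oct4low arrays. Both Oct4med arrays lay more than a unit below every other array, and the Oct4hi arrays lay below every Oct4low array. Subset means were 9.15 ± 0.12 (SD, n = 4) in Oct4hi, 7.91 ± 0.13 (n = 2) in Oct4med and 9.52 ± 0.08 (n = 4) in Oct4low BCCs. The log2 change in Oct4med against Oct4low BCCs was -1.61 (SE 0.10, 95% interval -1.83 to -1.39, limma adjusted p = 1.2e-06), a level 3.05-fold lower. By change it ranked 62 from the lowest of the 13883 tested probe sets. DDIT3 was 2.35-fold higher in Oct4hi than in Oct4med BCCs (log2 change 1.23, SE 0.10, limma adjusted p = 7.2e-06) and 1.3-fold lower in Oct4hi than in Oct4low BCCs (log2 change -0.38, SE 0.08, limma adjusted p = 0.00456). Every alternative that was run kept these 3 calls. With replicate 1 of Oct4med BCCs left out, the change against Oct4low BCCs was -1.51, and with replicate 2 left out it was -1.70.

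**Figure D2:**
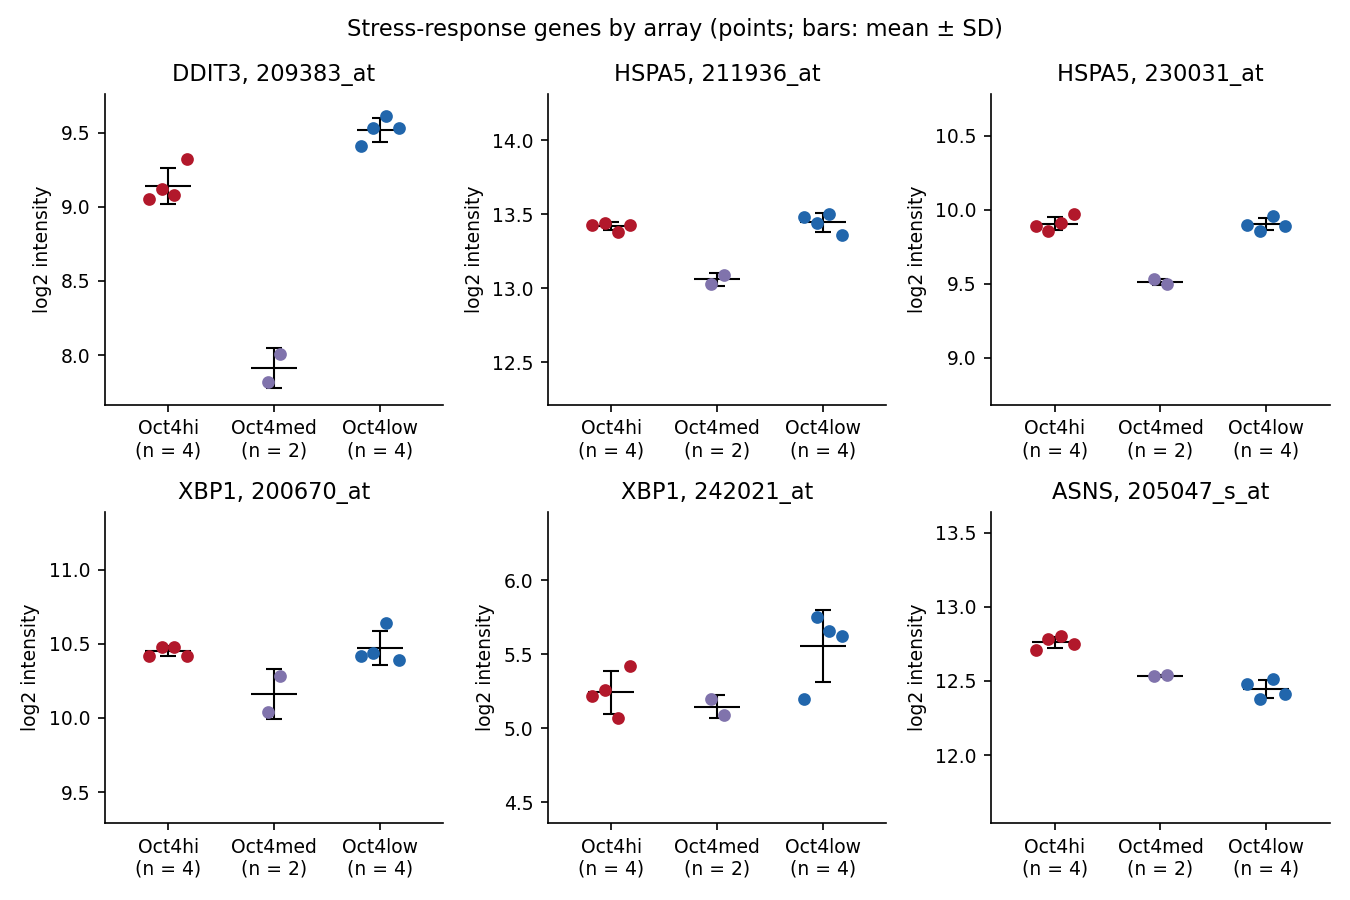
Log2 intensity of each array (points) for the 6 tested probe sets, by subset in the order Oct4hi, Oct4med, Oct4low, with bars for the mean and SD and the same span of log2 units in each panel. The 2 Oct4med arrays of DDIT3, at 7.82 and 8.01, lie below all 8 other arrays, and for ASNS the 4 Oct4hi arrays lie above all others.

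HSPA5 encodes BiP, the chaperone that holds the sensors inactive, and 2 probe sets measured it. The probe set 211936_at measured 13.43, 13.44, 13.38 and 13.43 in Oct4hi arrays, 13.03 and 13.09 in Oct4med arrays, and 13.48, 13.44, 13.50 and 13.36 in Oct4low arrays. The Oct4hi and Oct4low arrays overlapped and both Oct4med arrays lay below them. The change was -0.39 (SE 0.08, limma adjusted p = 0.00503) in Oct4med against Oct4low BCCs and 0.36 (SE 0.08, limma adjusted p = 0.0064) in Oct4hi against Oct4med BCCs. Between Oct4hi and Oct4low BCCs it was -0.03, with a 95% interval of -0.17 to 0.11 (limma adjusted p = 0.788).

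The other HSPA5 probe set, 230031_at, gave 9.89, 9.86, 9.91 and 9.97 in Oct4hi, 9.53 and 9.50 in Oct4med, and 9.90, 9.86, 9.96 and 9.89 in Oct4low arrays. Again both Oct4med arrays were the lowest, and the Oct4hi and Oct4low arrays overlapped. Its change was -0.39 (SE 0.08, limma adjusted p = 0.00451) in Oct4med against Oct4low BCCs, 0.39 (SE 0.08, limma adjusted p = 0.00357) in Oct4hi against Oct4med BCCs and 0.01 (95% interval -0.13 to 0.14) in Oct4hi against Oct4low BCCs. When the values were quantile normalized again, which gives every array the same spread of values, the change of 211936_at was -0.10 (adjusted p = 0.443) in Oct4med against Oct4low and 0.00 (adjusted p = 1.0) in Oct4hi against Oct4med BCCs. Those of 230031_at were -0.34 (adjusted p = 0.0119) and 0.24 (adjusted p = 0.048). However, 211936_at is among only 3 tested probe sets with a mean over 13. A probe set that keeps nearly the same extreme rank on each array gets nearly the same value from this step. The step therefore can show little change for 211936_at, and it cannot decide whether the probe sets of HSPA5 differ.

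XBP1 encodes the transcription factor whose mRNA IRE1 splices, and the arrays do not tell its spliced from its unspliced form. The probe set 200670_at measured 10.42, 10.48, 10.48 and 10.42 in Oct4hi arrays, 10.04 and 10.28 in Oct4med arrays, and 10.42, 10.44, 10.64 and 10.39 in Oct4low arrays. Both Oct4med arrays were below the rest, but replicate 1 by far more than replicate 2. The change was -0.31 (SE 0.10, limma adjusted p = 0.0421) in Oct4med against Oct4low BCCs and 0.29 (SE 0.10, limma adjusted p = 0.0459) in Oct4hi against Oct4med BCCs. In Oct4hi against Oct4low BCCs it was -0.02 (95% interval -0.20 to 0.15). Both calls sit next to the threshold. They were lost with no filter on low values (adjusted p = 0.0912 and 0.102), and without replicate 1 of Oct4med BCCs the changes were -0.20 (adjusted p = 0.335) and 0.17 (adjusted p = 0.406). With each of the 10 arrays left out in turn, 8 of 10 fits lost the call in each of these comparisons. The call against Oct4low BCCs held only without replicate 4 of Oct4low or replicate 2 of Oct4med BCCs, and that in Oct4hi against Oct4med BCCs only without replicate 3 of Oct4low or replicate 2 of Oct4med BCCs.

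The other XBP1 probe set, 242021_at, lay near the median of its arrays. It gave 5.22, 5.26, 5.07 and 5.42 in Oct4hi, 5.20 and 5.09 in Oct4med, and 5.20, 5.75, 5.66 and 5.62 in Oct4low arrays. Replicate 1 of Oct4low BCCs lay with the other subsets, and the remaining 3 Oct4low arrays were above every other array. No pairwise comparison passed, with -0.31 (limma adjusted p = 0.0555) in Oct4hi against Oct4low, -0.41 (0.0601) in Oct4med against Oct4low and 0.10 (0.624) in Oct4hi against Oct4med BCCs. Without replicate 1 of Oct4low BCCs the change against Oct4low BCCs was -0.43 (adjusted p = 0.00568) in Oct4hi and -0.53 (adjusted p = 0.00732) in Oct4med BCCs.

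ASNS makes asparagine from aspartate and glutamine and is a classic target of ATF4 when amino acids run short. Its probe set 205047_s_at measured 12.71, 12.78, 12.80 and 12.75 in Oct4hi arrays, 12.53 and 12.54 in Oct4med arrays, and 12.48, 12.38, 12.51 and 12.41 in Oct4low arrays. The 4 Oct4hi arrays were above all others, and the Oct4med arrays lay just above the Oct4low arrays. Means were 12.76 ± 0.04 (SD, n = 4), 12.54 ± 0.01 (n = 2) and 12.44 ± 0.06 (n = 4) in Oct4hi, Oct4med and Oct4low BCCs. ASNS was 1.25-fold higher in Oct4hi than in Oct4low BCCs (log2 change 0.32, SE 0.06, 95% interval 0.18 to 0.46, limma adjusted p = 0.00288). Neighbouring subsets did not differ past the threshold, with 0.22 (95% interval 0.05 to 0.40, limma adjusted p = 0.055) in Oct4hi against Oct4med and 0.09 (95% interval -0.08 to 0.27, limma adjusted p = 0.424) in Oct4med against Oct4low BCCs. After quantile normalizing again these changes were 0.06 (limma adjusted p = 0.557) and 0.21 (limma adjusted p = 0.0677), so Oct4med BCCs then lay nearer to Oct4hi BCCs. The change in Oct4hi against Oct4low BCCs was then 0.28 (limma adjusted p = 0.00533). The suffix of 205047_s_at marks probes that can match more than a single transcript. The other probe set, 241082_at, was below the median of all 10 arrays (3.34 to 3.79 in Oct4hi, 3.97 and 4.02 in Oct4med, 3.60 to 3.83 in Oct4low BCCs) and was not tested.

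**Figure D3:**
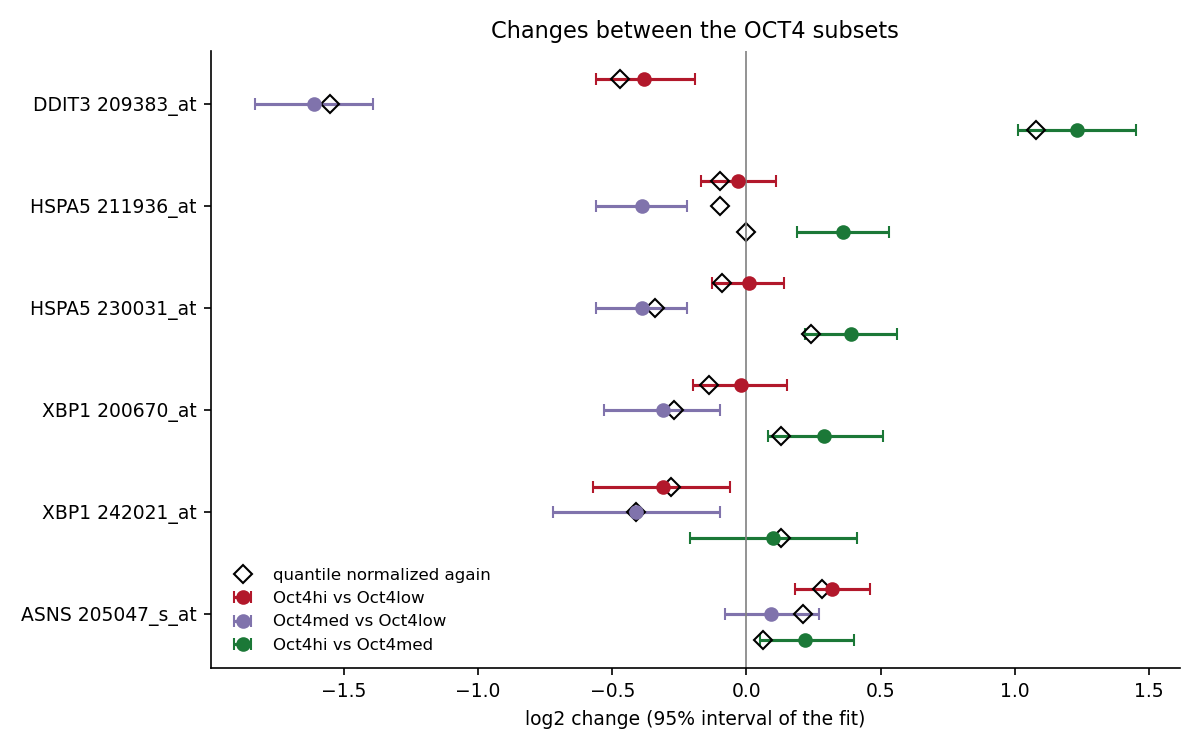
Log2 change of each tested probe set with the 95% interval of the fit (filled points) in the 3 comparisons, and the change after the values were quantile normalized again (open diamonds). DDIT3 stands at -1.61, -0.38 and 1.23 and moves little, whereas HSPA5 211936_at moves to -0.10 and 0.00 in the comparisons with Oct4med BCCs.

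Because signal was spread differently over the arrays, changes were set beside those of tested probe sets of like brightness, as a description. In Oct4hi against Oct4med BCCs, the median change was 0.20 for the 925 tested probe sets with means from 9 to 10 and 0.21 for the 499 from 10 to 11, and over all tested probe sets it was 0.02. Beside these medians stand changes of 1.23 for DDIT3, 0.39 for HSPA5 230031_at and 0.29 for XBP1 200670_at. The 52 probe sets with means from 12 to 13 had a median of 0.21, beside 0.22 for ASNS. In Oct4med against Oct4low BCCs the medians were -0.06, -0.04 and -0.08 in those ranges, beside -1.61 for DDIT3, -0.39 for HSPA5 230031_at, -0.31 for XBP1 200670_at and 0.09 for ASNS. ASNS changed by 0.32 in Oct4hi against Oct4low BCCs, beside a median of 0.09 for its range, and DDIT3 by -0.38, beside a median of 0.13 for its own. HSPA5 211936_at is itself among the 3 probe sets above 13, whose median was -0.27 in Oct4med against Oct4low BCCs, beside its -0.39, and 0.21 in Oct4hi against Oct4med BCCs, beside its 0.36. For the 4908 probe sets from 5 to 6 the medians were -0.03, 0.06 and -0.08 in Oct4hi against Oct4low, Oct4med against Oct4low and Oct4hi against Oct4med BCCs, beside -0.31, -0.41 and 0.10 for XBP1 242021_at. The part of the scaling in these changes was not tested beyond the alternatives given.

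**Figure D4:**
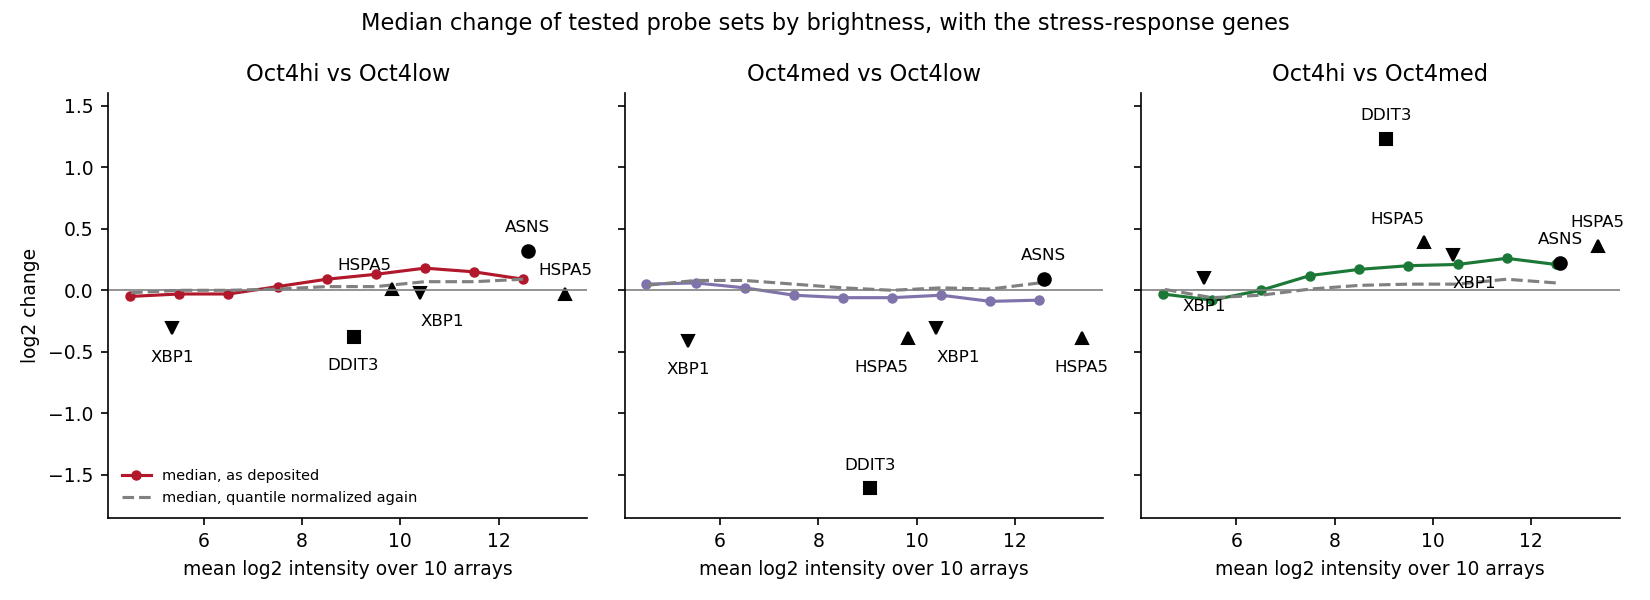
Median log2 change of tested probe sets in steps of 1 log2 unit of mean intensity (coloured line: values as deposited, dashed grey line: quantile normalized again), with the 6 tested probe sets in black, for the 3 comparisons. In Oct4hi against Oct4med BCCs the coloured line rises to about 0.2 for bright probe sets, where XBP1 at 0.29 and ASNS at 0.22 lie close to it and DDIT3 at 1.23 does not.

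Other genes of the response were taken from 6 pathway lists with 149 genes, of which 75 were tested, each by its brightest tested probe set. In Oct4hi against Oct4low BCCs 27 of 75 were higher and 11 lower, where 20.4% of all 7644 tested genes were higher and 14.7% lower. In Oct4med against Oct4low BCCs 4 were higher and 20 lower, against 5.68% and 11.7% of all genes. In Oct4hi against Oct4med BCCs 24 were higher and 3 lower, against 18.2% and 9.62%. The 4 genes are themselves among the 75. After quantile normalizing again 14 were higher and 14 lower in Oct4med against Oct4low BCCs, against 11% and 8.56% of all genes, and 10 were higher and 5 lower in Oct4hi against Oct4med BCCs, against 10.8% and 13.5%. Without replicate 1 of Oct4med BCCs, 10 were lower in Oct4med against Oct4low and 8 higher in Oct4hi against Oct4med BCCs, while over all tested genes 5.13% were lower in the first of these comparisons and 7.25% higher in the other.

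Of 10 tested sensors and transducers, which detect the stress or act on eIF2 alpha, 3 were lower in Oct4med than in Oct4low BCCs. That is 30.0%, against 11.7% of all tested genes. PPP1R15A, which directs the phosphatase that removes the phosphate from eIF2 alpha, averaged 10.30 ± 0.03 in Oct4hi, 9.62 ± 0.01 in Oct4med and 10.36 ± 0.03 in Oct4low BCCs (log2 change -0.73 in Oct4med against Oct4low, limma adjusted p = 4.87e-05). Its other probe set gave -0.69. ERN1, the gene of IRE1, was lower in both Oct4hi (-0.27, adjusted p = 0.00909) and Oct4med (-0.38, adjusted p = 0.00786) than in Oct4low BCCs. Its call in Oct4med BCCs was lost without replicate 2 of Oct4med BCCs (-0.30, adjusted p = 0.0677) and with the methods' t-test (adjusted p = 0.0601). DNAJC3, an inhibitor of PERK, changed by -0.61 in Oct4med against Oct4low BCCs (adjusted p = 0.0164), by 0.20 and -0.24 with its other tested probe sets, neither of which passed, and by -0.33 (adjusted p = 0.219) without replicate 1 of Oct4med BCCs. ATF6 did not pass in any comparison, with 0.01, 0.13 and -0.12 in Oct4hi against Oct4low, Oct4med against Oct4low and Oct4hi against Oct4med BCCs. NFE2L2, a factor of the oxidative stress response that PERK can activate, was 0.51 higher (adjusted p = 0.00564) and EIF2S1, which encodes eIF2 alpha, 0.22 higher (adjusted p = 0.0208) in Oct4hi than in Oct4low BCCs. After quantile normalizing again EIF2S1 changed by 0.11 (adjusted p = 0.222).

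Of 11 tested ER chaperones and folding enzymes, 3 were higher and 1 lower in Oct4hi than in Oct4low BCCs, and 3 were lower in Oct4med than in Oct4low BCCs. The shares in Oct4hi against Oct4low BCCs, 27.3% and 9.09%, lie near the 20.4% and 14.7% of all genes. The 3 lower in Oct4med BCCs (27.3%, against 11.7% of all genes) were HSPA5, SDF2L1 (-0.55, adjusted p = 0.000878) and DNAJB9 (-0.42, adjusted p = 0.00365), which assist BiP. The oxidase ERO1A (0.35, adjusted p = 0.0059) and the prolyl isomerase FKBP14 (0.54, adjusted p = 0.0065) were higher in Oct4hi than in Oct4low BCCs. The FKBP14 probe set averaged 5.21 in Oct4low BCCs, near the medians of those arrays (5.06 to 5.13). DNAJB9 was lower in Oct4hi than in Oct4low BCCs (-0.27, adjusted p = 0.00782). The other DNAJB9 probe set passed in neither comparison, with -0.28 in Oct4med and -0.22 in Oct4hi against Oct4low BCCs. HSP90B1, the ER member of the heat shock protein family HSP90, did not pass, with changes of 0.00 and 0.23 against Oct4low BCCs. The median change of the list was 0.00 and 0.07 in the comparisons of Oct4hi and Oct4med with Oct4low BCCs, beside 0.02 and 0.03 over all tested genes.

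Of 16 tested genes of ER-associated degradation, translocation and trafficking, XBP1 among them, 6 were lower and none higher in Oct4med than in Oct4low BCCs. These are 37.5% and 0.0%, against 11.7% and 5.68% of all tested genes. Without replicate 1 of Oct4med BCCs, 1 was lower, and after quantile normalizing again 3 were lower and 1 higher. The shares of all genes in these alternatives stand with the pathway lists above. The 6 lower genes included EDEM2, which marks misfolded glycoproteins for removal (-0.45, adjusted p = 0.00635). They also included a probe set of SEC61B, a subunit of the channel into the ER (-1.18, adjusted p = 0.000732, SD 0.42 between the 2 Oct4med arrays). That probe set averaged 5.21 in Oct4med BCCs, near the array medians of 5.14 and 5.08, and 1 of these arrays was below its own median. Without replicate 1 of Oct4med BCCs EDEM2 changed by -0.38 (adjusted p = 0.071), and SEC61B did not pass the methods' t-test (adjusted p = 0.0533). Oct4hi against Oct4low BCCs had 4 lower and 1 higher (25.0% and 6.25%, against 14.7% and 20.4% of all tested genes). SEC62 and SSR1, which also serve entry into the ER, changed by -0.49 (adjusted p = 0.0012; -0.25 with the other SEC62 probe set) and -0.33 (adjusted p = 0.00411), the signal peptidase subunit SPCS3 by -0.33 (adjusted p = 0.00542) and EDEM2 by -0.32 (adjusted p = 0.00856).

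Most amino acid genes were higher in Oct4hi than in Oct4low BCCs. Of 14 tested genes of amino acid synthesis and uptake, 10 were higher and none lower in Oct4hi than in Oct4low BCCs. These are 71.4% and 0.0%, against 20.4% and 14.7% of all tested genes. The median change was 0.32, beside 0.02 over all tested genes. Most of the 14 had means from 8 to 11, where the medians of tested probe sets in steps of 1 unit were 0.09, 0.13 and 0.18. The 10 higher included the transporters SLC38A1 (0.64, adjusted p = 0.00746) and SLC7A1 (0.56, adjusted p = 0.00163), the aminotransferase BCAT1 (0.55, adjusted p = 8.1e-05) and the cysteine-forming enzyme CTH (0.39, adjusted p = 0.00151). The count was 10 after quantile normalizing again and 9 to 10 with any array left out. In Oct4hi against Oct4med BCCs 4 of the 14 were higher (28.6%, against 18.2% of all genes), and 1 after quantile normalizing again. In Oct4med against Oct4low BCCs none passed and the median change was 0.15, but 6 were higher after quantile normalizing again. Of 8 tested aminoacyl-tRNA synthetases, which load tRNAs with amino acids, 5 were higher and 1 lower in Oct4hi than in Oct4low BCCs. These are 62.5% and 12.5%, against 20.4% and 14.7% of all tested genes. The 5 higher included SARS1 (0.35, adjusted p = 0.00313), EPRS1 (0.34, adjusted p = 0.00577) and LARS1 (0.87, adjusted p = 0.00685, SD 0.37 in Oct4hi BCCs). YARS1 was lower by probe set 238760_at (-0.51, adjusted p = 0.000502). In Oct4med against Oct4low BCCs LARS1 (0.83, adjusted p = 0.0374) and CARS1 (0.53, adjusted p = 0.0341) were higher and YARS1 lower (-0.59, adjusted p = 0.00115). Without replicate 2 of Oct4med BCCs no synthetase was called higher in that comparison, and LARS1 lost its call there in 7 of 20 alternatives and CARS1 in 8 of 20.

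Stress effectors and targets of ATF4 or CHOP, DDIT3 among them, were lower in Oct4med BCCs in part. Of 16 tested, 7 were lower and 1 higher in Oct4med than in Oct4low BCCs (3 lower and 0 higher without replicate 1 of Oct4med BCCs, 4 lower and 2 higher after quantile normalizing again), with a median change of -0.23. The 7 lower and 1 higher are 43.8% and 6.25%, against 11.7% and 5.68% of all tested genes. In Oct4hi against Oct4low BCCs the list was mixed, with 6 higher and 4 lower and a median change of 0.03. These are 37.5% and 25.0%, against 20.4% and 14.7% of all tested genes. The 6 higher were JDP2 (0.36), EIF4EBP1 (0.32), CEBPG (0.31), HMOX1 (0.26), GADD45A (0.25) and NUPR1 (0.25). ATF3, a repressor that the same stresses induce, averaged 11.57 ± 0.06 in Oct4hi, 10.67 ± 0.08 in Oct4med and 11.95 ± 0.06 in Oct4low BCCs. Its changes were -1.28 (adjusted p = 1.4e-06) in Oct4med and -0.38 (adjusted p = 0.00135) in Oct4hi against Oct4low BCCs. Its other probe set gave -0.99 in Oct4med and -0.10 in Oct4hi against Oct4low BCCs. The autophagy receptor SQSTM1 changed by -0.88 in Oct4med against Oct4low BCCs (adjusted p = 0.00081) with probe set 244804_at. GDF15, a secreted stress cytokine, ran the other way in Oct4med BCCs, with means of 7.75 in Oct4hi, 8.71 in Oct4med and 8.33 in Oct4low BCCs and a change of -0.58 (adjusted p = 0.000218) in Oct4hi against Oct4low BCCs. VEGFA, an angiogenic factor, changed by -0.42 (adjusted p = 0.00117) in that comparison. Of its 4 tested probe sets 3 passed, at -0.42 to -0.40, and the other gave -0.04.

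**Figure D5:**
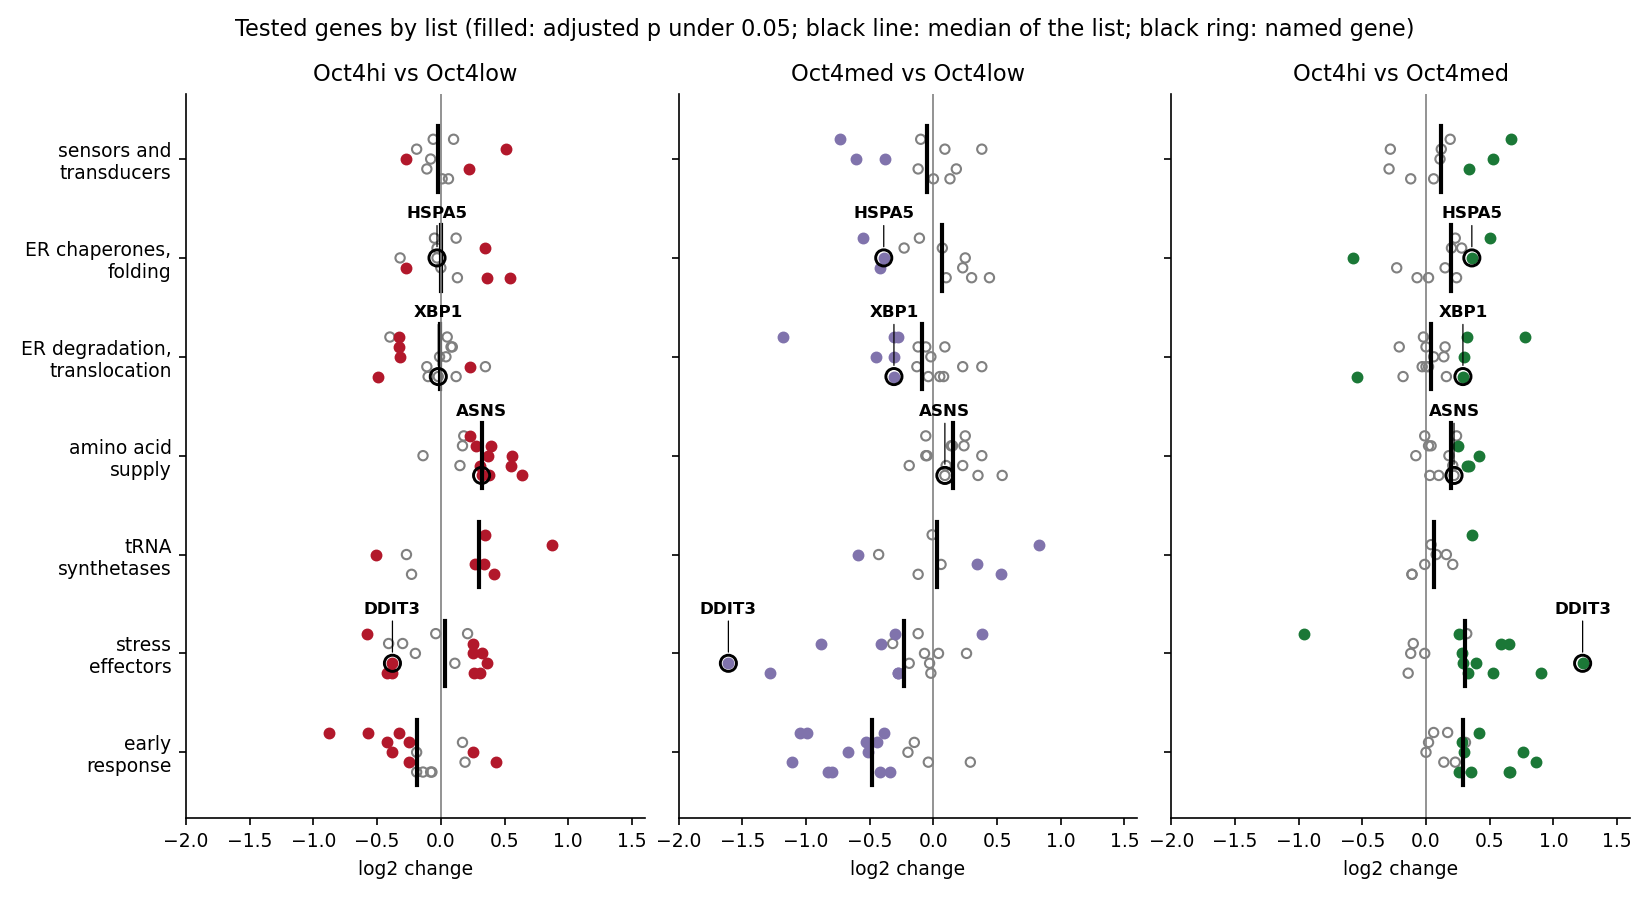
Log2 change of each tested gene of the 6 pathway lists and of an early-response list in the 3 comparisons, with filled points for an adjusted p under 0.05, black lines for list medians and black rings for the 4 genes. The amino acid genes lie right of 0 in Oct4hi against Oct4low BCCs (median 0.32), and DDIT3 lies far left at -1.61 in Oct4med against Oct4low BCCs.

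Early-response genes, which cells switch on within minutes of growth signals or handling, were mostly lower in Oct4med BCCs as well. Their list also holds heat shock genes, of which DNAJB1 and HSPH1 were tested. HSPH1 had the highest change of the list, 0.29, in Oct4med against Oct4low BCCs. Of 16 tested, 12 were lower and none higher in Oct4med than in Oct4low BCCs (10 lower without replicate 1 of Oct4med BCCs), with a median change of -0.48 and a range of -1.11 to 0.29. Over all tested genes, 11.7% were lower and 5.68% higher in Oct4med than in Oct4low BCCs. Of the 16, 9 were higher and none lower in Oct4hi than in Oct4med BCCs (median 0.29), against 18.2% and 9.62% of all genes. In Oct4hi against Oct4low BCCs 2 of the 16 were higher and 7 lower (median -0.19), against 20.4% and 14.7% of all genes. The part of the early response in the change of DDIT3 was not tested.

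The genes whose levels ran most like each of the 4 were found by the root mean square difference of log2 values over the 10 arrays, each centred on its own mean. For DDIT3 these were RRAD (0.0788), ID3 (0.0856) and CYTOR (0.108), each lowest in Oct4med BCCs. For HSPA5 they were FOSL1 (0.0408), LOC374443 (0.0411) and CDADC1 (0.042), and for XBP1 they were KRT80 (0.0387), RUNX2 (0.0453) and MED4 (0.0461). For ASNS they were TPM1 (0.0376), ITPK1 (0.0391) and PITHD1 (0.0391), each highest in Oct4hi BCCs.

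The genes were also grouped by the promoter elements. Of 25 genes with a full ER stress element in a RefSeq window, 6 were tested, HSPA5 and XBP1 among them. None passed in Oct4hi against Oct4low BCCs, where 20.4% of all tested genes were higher and 14.7% lower. Only HSPA5 and XBP1, 33.3% of the 6, passed in the comparisons with Oct4med BCCs. They were lower in Oct4med than in Oct4low BCCs (11.7% of all tested genes) and higher in Oct4hi than in Oct4med BCCs (18.2%). Both are among the 4 genes followed here, and XBP1 lost these calls in 14 of 20 and 15 of 20 alternatives. Of 1217 genes with the composite element, 200 were tested. Of these, 53 were higher and 29 lower in Oct4hi than in Oct4low BCCs, with a median change of 0.02, the same as over all tested genes. These are 26.5% and 14.5%, against 20.4% and 14.7% of all tested genes. In Oct4med against Oct4low BCCs 10 were higher and 23 lower, and in Oct4hi against Oct4med BCCs 43 were higher and 22 lower, shares of 5.0%, 11.5%, 21.5% and 11% that lie near the background.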

How the data were processed

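Total RNA of sorted MDA-MB-231 BCCs was measured on 10 arrays. According to the methods of the study, the authors took intensities after background correction, normalized them by RMA in BRB-Array Tools 4.4.0 and filtered features with low or nearly constant signal. The deposited values are log2 intensities between 2.37 and 14.46. RMA summarises several probes into a single value. Large changes may be compressed in array values, which was not tested, and the filter means that list shares refer to measured genes only. All columns of values were used.

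Of the probe sets, 23 were controls and were left out, 18683 carried 1 gene symbol (799 several, 6268 none). Tests used limma 3.58.1 in R 4.3.3, and the fit was tested on simulated data. Each gene was represented by its tested probe set with the highest mean. The members, lists and tests were chosen with earlier results of these data known. Besides the 4 genes with all their probe sets and the stress sensors, the genes named from each pathway list were the 4 with the largest changes in Oct4hi against Oct4low BCCs and the 3 in Oct4med against Oct4low BCCs, among those past the threshold whose arrays did not overlap. HSP90B1 and the 6 stress effectors higher in Oct4hi than in Oct4low BCCs were named after their values were seen. Promoters and gene loci came from RefSeq (GRCh38.p14), where all 4 genes matched. Alternatives were other filters (none, the 75th percentile, 1.2-fold variation), scalings, weighted arrays, a robust prior with an intensity trend, a model of 2 subsets alone, the methods' t-test, a replicate block, other probe sets per gene and leaving out each array. Precision is limited by the number of arrays, most of all the 2 of Oct4med BCCs. The gate of Oct4low BCCs is given differently in the results of the study.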

Additional observations from a re-analysis of the deposited data

Results flagged for a closer look

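In 70 groups of 4 arrays (35 probe sets of the named genes in Oct4hi and in Oct4low BCCs), 4 had a highest or lowest array that stood apart from the other 3 by Dixon's 95% criterion, and chance alone marks about 1 in 20 groups. HSPA5 (211936_at) in replicate 3 of Oct4hi BCCs was 13.38, with the others at 13.43 to 13.44. EPRS1 (200842_s_at) in replicate 1 of Oct4hi BCCs was 11.99, with the others at 11.86 to 11.87. YARS1 (238760_at) in replicate 4 of Oct4hi BCCs was 7.22, with the others at 6.99 to 7.03. SPCS3 (221844_x_at) in replicate 3 of Oct4low BCCs was 10.54, with the others at 10.36 to 10.38.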

How the results depend on the processing

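No result changed direction while called. The calls of DDIT3 in all 3 comparisons, of ASNS in Oct4hi against Oct4low BCCs and of HSPA5 (230031_at) in both comparisons with Oct4med BCCs were kept in every alternative in which they could be fitted. For XBP1 (200670_at), the changes in Oct4med against Oct4low and in Oct4hi against Oct4med BCCs were below the threshold with no filter (-0.31, 0.29), a common median (-0.31, 0.33), array weights (-0.29, 0.29), 2 subsets alone (-0.31, 0.29) and the methods' t-test (-0.31, 0.29), and the second also after quantile normalizing again (0.13). With an array left out they ranged from -0.43 to -0.20 and from 0.17 to 0.41, and 8 of 10 such fits lost the call in each comparison. HSPA5 (211936_at) changed by -0.10 and 0.00 after quantile normalizing again, and by 0.33 to 0.39 in Oct4hi against Oct4med BCCs with an array left out (adjusted p = 0.0617 without replicate 1 of Oct4med BCCs). ASNS passed in Oct4hi against Oct4med BCCs (0.22) with the stricter filter (adjusted p = 0.0152), the intensity trend (adjusted p = 0.00234) and the methods' t-test (adjusted p = 0.023). After quantile normalizing again, however, its change there was 0.06 (limma adjusted p = 0.557), and in Oct4med against Oct4low BCCs it was 0.21 (limma adjusted p = 0.0677).

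Of the 6 tested probe sets of the 4 genes, 4 were called in Oct4hi against Oct4med BCCs, 2 after quantile normalizing again and 2 to 4 with an array left out, and by the F-test 3 of 6 after quantile normalizing again. Pathway genes higher in Oct4med against Oct4low BCCs, 4 as deposited, numbered 12 with the stricter filter, 8 with the variation filter, 14 after quantile normalizing again, 1 with array weights, 10 with the intensity trend, 1 with the t-test, 0 without _x_at and _s_at probe sets and 0 to 7 with an array left out. Those lower, 20 as deposited, numbered 13 with no filter, 13 with the t-test and 10 to 19 with an array left out. In Oct4hi against Oct4med BCCs, 10 were higher and 5 lower after quantile normalizing again, 1 was lower with the t-test, and 8 to 25 were higher with an array left out. Without _x_at and _s_at probe sets, which drops the tested ASNS probe set, 1 probe set of the 4 genes was called in Oct4hi against Oct4low BCCs, with 16 pathway genes higher and 6 lower. The cause of these shifts was not tested.

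Replicate numbers were shared by the subsets, and the methods of the study describe separate experiments, so same-numbered arrays may be paired. Deviations from the subset means correlated at -0.265 to 0.277 between same-numbered arrays. With so few arrays in a subset, these values cannot decide whether the arrays are paired. With the replicate number as a block, 0 pathway genes were higher and 13 lower in Oct4med against Oct4low BCCs, and XBP1 changed by -0.29 (adjusted p = 0.11) and by 0.27 in Oct4hi against Oct4med BCCs (adjusted p = 0.102).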
